A study of Mus musculus with 2 samples.

Results

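H3K4me3, trimethylation of lysine 4 on histone H3, was followed across the stretches of the genome that hold the HoxC and HoxD gene clusters. The members were all 200 bp windows of chr15:102690001-102900000 (HoxC, 1050 windows) and chr2:74400001-74650000 (HoxD, 1250 windows) on build mm8. They were set by position and not by their counts, though with earlier results of these data known. They number 2300, against 3719848 windows that hold a read in at least 1 of the libraries. The libraries came from mouse embryonic fibroblast lines, a wild-type line (Lsh+/+, WT) and a line without Lsh (Lsh-/-, Lsh_KO), with 1 library each. Lsh, also named Hells, is a chromatin remodeller needed for normal DNA methylation. Chromatin of 20000000 cells per line was cut with micrococcal nuclease to mostly single nucleosomes and precipitated with an antibody against H3K4me3, and no input library was analysed here. With 1 library per genotype there was no test of genotype: each ratio describes these libraries, and its 95% interval covers counting error only. Differences between the lines that have nothing to do with Lsh cannot be told apart from those that do.

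Hox genes encode homeodomain transcription factors that give cells their position along the body axis. They lie in clusters in the order in which they act, and fibroblasts in culture keep the Hox pattern of the place they came from. Polycomb complexes hold silent Hox genes in a compact state, while Trithorax complexes, which include H3K4 methyltransferases, keep active ones open. H3K4me3 sits in sharp peaks at the starts of most active genes, and across Hox clusters it can also spread over long stretches.

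The read lists held 2471782 distinct reads for WT and 2790389 for Lsh_KO, counted once per position and strand. A background window of 2 kb held 1.36 reads in both libraries. Windows marked in either library (at least 10 reads and at least 5 times background) took 30.8% of WT and 38.6% of Lsh_KO reads. Ratios of Lsh_KO to WT were therefore scaled by 1.42, the median ratio of windows marked in both. The window lists held further reads beyond these distinct reads, 1598335 for WT and 1759904 for Lsh_KO, which served as a technical repeat. They may include the reads dropped for repeating a position and strand. They come from the same libraries and are not an independent repeat. The promoters of 8 of 17 fibroblast marker genes could be placed on the files' coordinates, and 8 were marked in WT and 7 in Lsh_KO. Of 18935 placed promoters of the genome, 61.2% were marked in both. Placing needs a matching read, which favours marked promoters. Of the 7 fibroblast promoters with at least 20 reads, 1 was called lower by the 2-fold rule used for windows and 0 higher. Over the genome 3.55% and 2.14% of 12071 placed promoters were. The median log2 ratio of the 7 was 0.17. The collagen genes Col1a2 and Col3a1 had 48 and 31 reads in WT and 14 and 71 in Lsh_KO. S100a4, with fewer than 20 reads, had 15 in WT and 2 in Lsh_KO. The epithelial keratin promoters Krt18 and Krt14 had 1 and 2 reads in WT and 51 and 29 in Lsh_KO, while Epcam, an epithelial adhesion gene, had 13 and 16. Of the 7 epithelial genes listed, 3 were placed, with 16 reads in sum in WT and 96 in Lsh_KO; the part of this difference between the lines in the Hox values was not tested. The promoter of Hells had 84 and 116 reads, a scaled ratio of 0.972 (95% interval 0.728 to 1.30), which does not check the deletion.

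Start sites were placed by the files' own reads. A RefSeq promoter sequence (300 bases, 250 before to 50 after the start, from GRCm38.p6) was placed where a 25-base read matched it exactly on the right chromosome and strand, often through 1 read. This gave 7 starts of 4 symbols in the HoxC stretch and 13 starts of 11 symbols in the HoxD stretch. Of the HoxC genes only Hoxc4 was placed, so peaks elsewhere in HoxC carry no gene name here. The first sequences are those of the highest, the lowest and the most nearly equal ratio among starts with at least 20 reads, with CG pairs in capitals. Sequences are given 5′ to 3′ on the strand of the gene, and the coordinates are where the reads place them on mm8.
Gm36878, minus strand, chr15:102809048-102809347: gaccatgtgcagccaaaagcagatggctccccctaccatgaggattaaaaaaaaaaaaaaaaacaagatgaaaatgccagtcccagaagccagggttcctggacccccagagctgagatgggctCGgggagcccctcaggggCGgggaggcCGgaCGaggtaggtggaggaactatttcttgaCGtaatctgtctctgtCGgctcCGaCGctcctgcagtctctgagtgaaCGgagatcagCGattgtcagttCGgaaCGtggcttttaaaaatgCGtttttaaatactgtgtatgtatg
Gm29905, minus strand, chr15:102826152-102826451: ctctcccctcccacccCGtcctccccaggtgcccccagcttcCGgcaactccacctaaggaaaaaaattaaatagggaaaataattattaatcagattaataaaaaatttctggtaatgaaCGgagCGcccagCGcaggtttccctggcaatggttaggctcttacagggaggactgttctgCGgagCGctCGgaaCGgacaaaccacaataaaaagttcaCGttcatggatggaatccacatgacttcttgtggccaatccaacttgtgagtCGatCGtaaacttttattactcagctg
Hoxc4, plus strand, chr15:102862179-102862478: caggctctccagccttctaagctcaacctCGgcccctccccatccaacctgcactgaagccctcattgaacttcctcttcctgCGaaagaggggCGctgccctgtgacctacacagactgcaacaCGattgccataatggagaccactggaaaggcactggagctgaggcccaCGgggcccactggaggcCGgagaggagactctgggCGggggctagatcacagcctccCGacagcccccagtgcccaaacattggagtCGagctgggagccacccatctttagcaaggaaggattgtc
Hoxd3, plus strand, chr2:74512582-74512881: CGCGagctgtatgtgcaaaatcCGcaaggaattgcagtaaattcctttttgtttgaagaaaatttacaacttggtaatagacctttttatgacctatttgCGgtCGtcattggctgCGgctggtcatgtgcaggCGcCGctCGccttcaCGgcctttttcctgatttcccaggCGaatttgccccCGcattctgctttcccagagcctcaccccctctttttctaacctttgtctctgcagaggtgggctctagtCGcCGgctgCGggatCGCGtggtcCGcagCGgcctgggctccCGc
Hoxd8, plus strand, chr2:74505204-74505503: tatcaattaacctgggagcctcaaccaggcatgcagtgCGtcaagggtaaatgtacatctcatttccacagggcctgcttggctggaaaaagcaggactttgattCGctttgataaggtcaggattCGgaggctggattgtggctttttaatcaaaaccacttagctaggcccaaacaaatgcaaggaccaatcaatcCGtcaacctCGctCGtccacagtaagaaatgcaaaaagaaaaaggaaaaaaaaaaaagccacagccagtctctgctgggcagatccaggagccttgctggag
The gene starts with fewer than 10 distinct reads within 1 kb in both libraries follow. They are shown because by this count they stayed unmarked in a cluster where others carried the mark. In the deposited counts Evx2 had 18 WT reads and the first Gm30528 start shown had 10. Of the 3 Gm30528 starts that lie within a few bases of each other, 1 is shown.
Gm30528, minus strand, chr15:102860259-102860558: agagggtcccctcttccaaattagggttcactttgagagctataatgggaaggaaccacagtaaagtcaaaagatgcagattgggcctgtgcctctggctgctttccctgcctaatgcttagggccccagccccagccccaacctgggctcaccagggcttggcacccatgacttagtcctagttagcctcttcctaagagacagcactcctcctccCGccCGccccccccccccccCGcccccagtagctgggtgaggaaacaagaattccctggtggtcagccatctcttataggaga
Gm30528, minus strand, chr15:102888540-102888839: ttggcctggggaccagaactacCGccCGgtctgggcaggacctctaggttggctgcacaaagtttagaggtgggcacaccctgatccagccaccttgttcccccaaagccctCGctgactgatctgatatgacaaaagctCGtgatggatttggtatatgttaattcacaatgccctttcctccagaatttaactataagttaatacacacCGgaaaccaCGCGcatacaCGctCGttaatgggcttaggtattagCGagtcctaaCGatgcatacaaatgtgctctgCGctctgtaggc
Evx2, minus strand, chr2:74460347-74460646: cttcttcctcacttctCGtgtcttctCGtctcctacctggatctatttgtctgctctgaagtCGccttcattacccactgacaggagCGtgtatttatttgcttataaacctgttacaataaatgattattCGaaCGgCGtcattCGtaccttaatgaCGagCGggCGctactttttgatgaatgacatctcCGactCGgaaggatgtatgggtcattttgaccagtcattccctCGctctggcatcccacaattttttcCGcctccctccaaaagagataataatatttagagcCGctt
Hoxd12, plus strand, chr2:74475602-74475901: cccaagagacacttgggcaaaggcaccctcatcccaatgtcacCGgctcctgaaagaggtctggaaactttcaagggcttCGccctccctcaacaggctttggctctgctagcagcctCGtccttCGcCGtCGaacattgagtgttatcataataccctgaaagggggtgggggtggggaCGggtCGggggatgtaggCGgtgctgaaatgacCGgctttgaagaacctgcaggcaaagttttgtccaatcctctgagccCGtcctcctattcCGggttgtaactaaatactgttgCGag
Hoxd11, plus strand, chr2:74480147-74480446: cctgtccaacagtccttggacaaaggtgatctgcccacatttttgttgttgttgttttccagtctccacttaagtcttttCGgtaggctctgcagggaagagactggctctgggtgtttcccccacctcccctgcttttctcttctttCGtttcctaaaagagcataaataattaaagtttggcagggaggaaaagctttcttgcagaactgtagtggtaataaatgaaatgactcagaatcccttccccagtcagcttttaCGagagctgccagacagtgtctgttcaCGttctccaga
Hoxd3os1, minus strand, chr2:74516920-74517219: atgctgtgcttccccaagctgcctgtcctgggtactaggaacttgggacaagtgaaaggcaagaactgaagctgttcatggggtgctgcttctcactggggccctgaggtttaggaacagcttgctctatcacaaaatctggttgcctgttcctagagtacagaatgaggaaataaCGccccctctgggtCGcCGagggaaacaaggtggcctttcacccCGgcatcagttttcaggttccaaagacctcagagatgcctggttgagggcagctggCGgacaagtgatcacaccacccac
Hoxd1, plus strand, chr2:74563569-74563868: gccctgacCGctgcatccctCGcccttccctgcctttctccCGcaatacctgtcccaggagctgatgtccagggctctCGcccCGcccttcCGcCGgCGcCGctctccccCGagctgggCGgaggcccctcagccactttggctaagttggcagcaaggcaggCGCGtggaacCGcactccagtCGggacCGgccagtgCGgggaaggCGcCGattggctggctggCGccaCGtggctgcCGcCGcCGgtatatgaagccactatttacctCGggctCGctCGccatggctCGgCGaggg
Among the starts unmarked by distinct reads, CG pairs run from 3 at Gm30528 to 29 at Hoxd1. Hoxd3, which carried the mark in Lsh_KO, has 20. By GC content over 50% and an observed over expected CpG ratio over 0.6, 1 of 7 HoxC starts and 7 of 13 HoxD starts were CpG-rich, against 33.3% of all promoters in the table.

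Over the whole HoxC stretch, WT had 720 distinct reads and Lsh_KO 621. The scaled ratio was 0.607 (95% interval 0.544 to 0.677). The HoxD stretch had 463 WT and 473 Lsh_KO reads, a scaled ratio of 0.719 (0.631 to 0.819). Both fell below 1 against the median marked window of the genome, and this direction depends on the scaling. Weakly covered windows lay below 1 over the whole genome under this scaling. For 2 kb windows with 10 to 30 reads in the libraries together, the median scaled ratio was 0.704 over the genome, 0.436 in HoxC and 0.528 in HoxD. Scaled by total reads, the ratios were 0.764 (0.685 to 0.852) and 0.905 (0.794 to 1.03). Scaled by the background of the surrounding 5 Mb, they were 1.08 (0.971 to 1.21) for HoxC and 1.06 (0.928 to 1.20) for HoxD. Background reads in the 5 Mb around HoxC had an unscaled ratio of 0.797 (0.764 to 0.831), and around HoxD 0.966 (0.927 to 1.01). Over the genome they numbered 1710968 in WT and 1712390 in Lsh_KO. Neither interval by the local background leaves out 1.

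In 2 kb windows with at least 20 reads together, a window was called at a scaled ratio of at least 2-fold with an interval that left out 1. Of 18 HoxC windows tested, 3 were called lower and 2 higher in Lsh_KO, where 5.80% and 3.45% of 21163 windows of the genome were called. Of 5 HoxD windows, 0 were called lower and 1 higher. The 3 lower windows were chr15:102752001-102754000 with 16 WT and 5 Lsh_KO reads, chr15:102760001-102762000 with 17 and 5, and chr15:102800001-102802000 with 15 and 5. The higher HoxC windows were chr15:102770001-102772000 with 12 and 40 reads and chr15:102808001-102810000 with 11 and 33. The higher HoxD window, chr2:74512001-74514000, had 9 and 39 reads and holds the Hoxd3 start. Scaled by total reads, which called 8.68% of windows of the genome higher and 3.45% lower, HoxC had 3 higher and 3 lower and HoxD 1 and 0. With a minimum of 10 reads, 2 of 54 HoxC windows were higher and 14 lower, and 1 and 6 of 23 HoxD windows, against 2.07% and 7.56% over the genome. The deposited counts, which hold more reads, gave 13 lower and 4 higher of 36 HoxC windows, and 6 lower and 2 higher of 14 HoxD windows, against 10.4% lower and 4.66% higher over the genome.

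Within the HoxC and HoxD stretches the libraries differed in how the mark was spread. In WT it lay thinly over much of HoxC, while Lsh_KO had a few taller peaks over a lower level. Most Lsh_KO reads still lay outside the peaks: of 981 deposited HoxC reads, 648 fell outside its 5 regions. From Gm36878 to Hoxc4, Lsh_KO distinct reads stood at 4.02 times the background of the genome and WT reads at 5.07 times. The 5 Mb around HoxC lay above that background: its 1571 background windows held 4994 WT and 3979 Lsh_KO reads. Against this local level both folds are smaller, and the libraries no longer differ there. The unscaled ratio of that segment was 0.793 (0.634 to 0.991), next to 0.797 for the local background. In the deposited counts, 570 of 1050 HoxC windows (54.3%, exact 95% interval 51.2 to 57.3) held a read in WT and 401 (38.2%, 35.2 to 41.2) in Lsh_KO. In HoxA 51.7% were covered in WT and 49.0% in Lsh_KO, and in HoxB 48.9% and 39.5%. The share over the genome is not given here, so a lower coverage in Lsh_KO is not shown to be particular to HoxC. The fullest HoxC window held 10 WT reads, against 40 in Lsh_KO. Windows with 1 to 5 reads held 1016 WT reads and 610 Lsh_KO reads, whereas windows with 6 or more held 12.7% of WT reads and 37.8% of Lsh_KO reads. Such windows held 65.7% of WT and 71.3% of Lsh_KO reads in HoxA, and 65.9% and 42.8% in HoxB, the other way. Lsh_KO was also the library with more reads in marked 2 kb windows of the genome, 38.6% against 30.8% in WT. At least 6 reads were found in 21 windows in WT and 28 in Lsh_KO, and 6 windows reached this in both. These are 28.6% of the WT and 21.4% of the Lsh_KO windows, against 85.6% and 71.1% over the genome. The WT windows of HoxC lie near the limit of 6 reads, where counting error alone lowers sharing, and the genome shares were not matched for height. Of the 22 windows that reached the limit in Lsh_KO alone, 1 held no WT read. Of the 15 in WT alone, 6 held no Lsh_KO read. In HoxA 43 of 80 WT and 43 of 68 Lsh_KO windows were shared, and in HoxB 18 of 45 and 18 of 18. In HoxD, 446 of 1250 windows (35.7%, 33.0 to 38.4) were covered in WT and 359 (28.7%, 26.2 to 31.3) in Lsh_KO. There, windows with 6 or more reads took 14.4% of WT and 33.2% of Lsh_KO reads, and 6 of 10 WT and 6 of 17 Lsh_KO windows were shared.

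**Figure D1:**
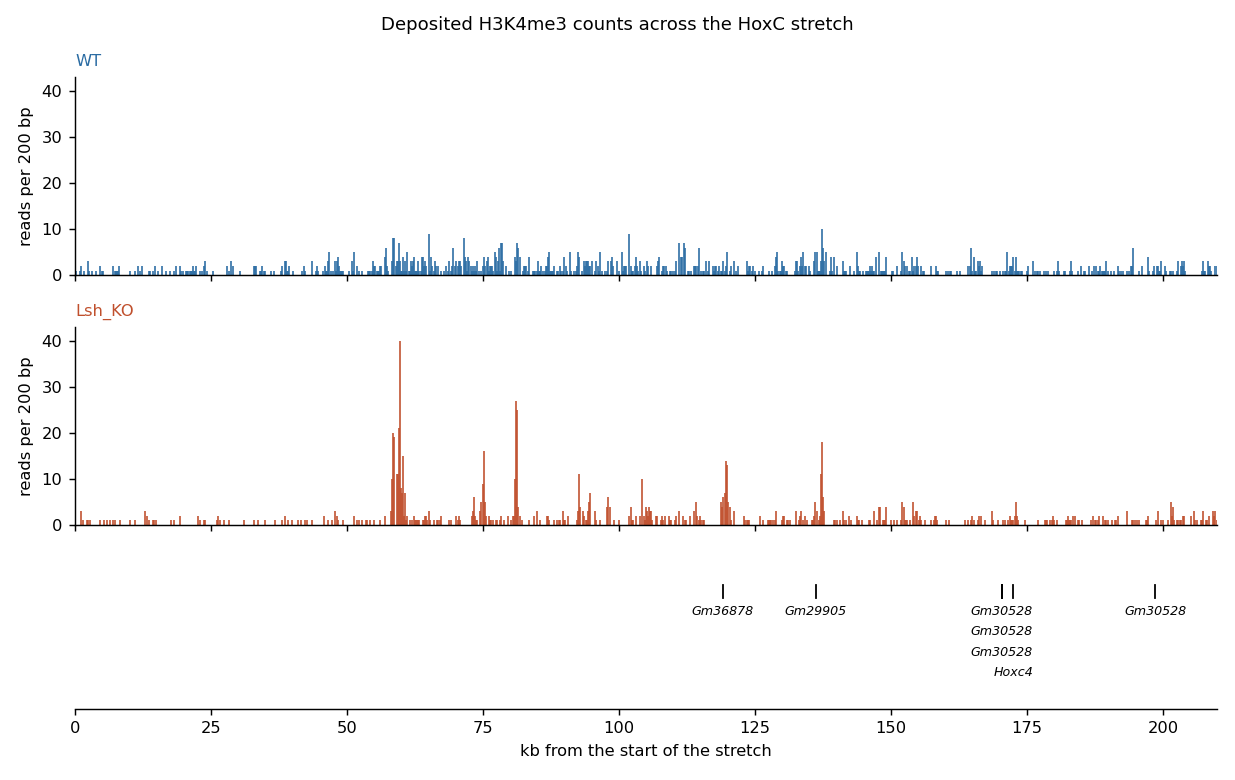
Deposited reads per 200 bp window (y axis, same scale in both panels) against distance in kb from the start of the HoxC stretch, for WT (top) and Lsh_KO (bottom), 1 library each, with placed gene starts as ticks below. WT windows reach at most 10 reads over a broad low level, and Lsh_KO windows reach 40 in a few narrow peaks.

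The further reads were then counted inside and outside focal windows, those with at least 8 reads in the read lists of both libraries together, extended by 200 bp on each side. This split was devised after the pattern had been seen, and its outcome depends on the library that chooses the windows. The 41 focal windows of HoxC held 81 WT and 214 Lsh_KO read-list reads, so most were taken up through Lsh_KO, and their ratio is given as a description only. They held 49 WT and 166 Lsh_KO further reads, and the remaining 1009 windows held 395 and 194. The 17 focal windows of HoxD held 51 and 91, and the remaining 1233 held 251 and 175. The focal ratio of Lsh_KO to WT divided by the remaining ratio was 6.90 (4.74 to 10.1) in HoxC and 2.56 (1.70 to 3.88) in HoxD, against 1.61 over the genome. It was 1.74 in HoxA and 0.833 in HoxB. A choice made mostly through Lsh_KO raises this ratio by itself, so its distance from the genome value is not a test.

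Chosen from at least 4 reads of Lsh_KO alone, the same ratio was 7.54 (5.19 to 11.0) in HoxC and 2.95 (1.98 to 4.42) in HoxD. By that choice the ratio was 1.67 over the genome, 3.41 in HoxA and 1.36 in HoxB. Chosen from at least 4 reads of WT alone, it was 1.91 (1.31 to 2.80) in HoxC and 1.29 (0.813 to 2.04) in HoxD. Both intervals take in the 1.52 found over the genome in that way, and HoxA gave 0.820 and HoxB 0.522. In HoxC, the windows left outside the WT-chosen ones held 383 WT and 276 Lsh_KO further reads, an unscaled ratio of 0.721 (0.615 to 0.843), whose interval takes in the 0.691 of further background reads in the surrounding 5 Mb.

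In HoxC the fullest peak of Lsh_KO ran from chr15:102748201-102750800 with 171 deposited reads, against 47 in WT. Its 2 kb window at 102748001 had 27 WT and 75 Lsh_KO distinct reads, a scaled ratio of 1.95 (1.24 to 3.16) just under the 2-fold rule, and the deposited counts of 38 and 143 passed it. A peak at chr15:102770801-102771400 held 62 Lsh_KO and 14 WT reads, and the one at chr15:102764801-102765200 held 25 and 6. At chr15:102809001-102810000, which spans the placed Gm36878 start, the values were 40 and 11. Near the Gm29905 start, chr15:102827001-102827600 held 35 Lsh_KO and 19 WT reads. WT in turn had regions with few Lsh_KO reads, at chr15:102767801-102768600 with 21 reads against 3 and at chr15:102801001-102802200 with 28 against 6. The WT region that overlapped the fullest Lsh_KO peak, chr15:102748401-102749600, held 31 reads against 82. Of 3 WT and 5 Lsh_KO regions, only this pair overlapped, while over the genome 94.7% of 11184 WT and 91.2% of 11580 Lsh_KO regions did. The HoxC regions lie near the limits of the rule: the WT number ran from 0 to 8 with other limits. In HoxD 1 of 2 WT and 1 of 3 Lsh_KO regions overlapped. In HoxA 9 of 9 WT and 9 of 12 Lsh_KO regions did, and in HoxB 3 of 6 and 3 of 3.

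The first 50 kb of the HoxC stretch, which lie ahead of its peaks, held 89 WT and 43 Lsh_KO distinct reads. The unscaled ratio there was 0.483 (0.328 to 0.703), below the local background ratio of 0.797. In bins of 10 kb, 21 of 21 HoxC bins had a scaled ratio below 1, and 9 had an interval below 1. In HoxD 20 of 25 were below 1 and 6 had an interval below 1. Over the genome, 69.8% of 69887 bins with at least 20 reads were below 1 and 15.2% had an interval below 1. Many HoxD bins held fewer than 20 reads. Of all 249219 covered bins of the genome, 68.4% were below 1 and 8.55% had an interval below 1. By unscaled counts, 17 HoxC and 10 HoxD bins held more WT reads, against 38.8% of genome bins with at least 20 reads and 42.8% of all covered bins. These segments and bins were set after the values had been seen.

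**Figure D2:**
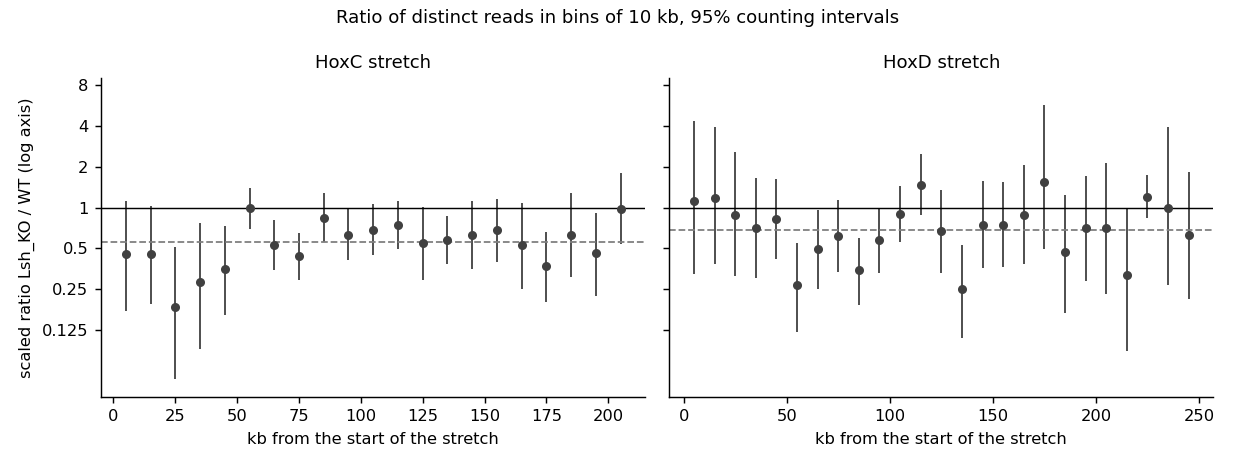
Scaled ratio of Lsh_KO to WT distinct reads (log axis) in bins of 10 kb against distance in kb from the start of each stretch, with exact 95% intervals, a solid line at 1 and a dashed line at the background ratio of the surrounding 5 Mb. HoxC bins run from 0.185 to 0.990 and HoxD bins from 0.251 to 1.55.

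Along HoxD the ratio differed between segments of the cluster. From 5 kb beyond Evx2, a homeobox gene at the posterior end, through Hoxd12, Hoxd11 and Hoxd10, WT had 141 reads and Lsh_KO 76, a scaled ratio of 0.379 (0.283 to 0.505). The further reads gave 0.294 (0.194 to 0.436). From Hoxd9 to Hoxd3, genes of the middle and anterior cluster, WT had 56 and Lsh_KO 102 reads, a ratio of 1.28 (0.916 to 1.81), and the further reads gave 1.35 (0.847 to 2.19). From Hoxd3 to Hoxd1 the counts were 99 and 82, a ratio of 0.583 (0.430 to 0.789). The intervals of the posterior and middle segments do not meet, which describes these chosen segments and is not a test of position. The gap between Hoxd1 and Mtx2 held 51 and 47 reads, 1.42 and 1.31 times the background of the genome. Per 2 kb the gap held 1.93 WT and 1.78 Lsh_KO reads. The 2429 background windows of the surrounding 5 Mb held 4666 WT and 4509 Lsh_KO reads, a level close to that of the gap. The HoxD segments, too, were drawn after the values had been seen.

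Regions of the deposited counts lay in the same parts of HoxD. In WT, chr2:74483001-74484400 at the second Hoxd11 start held 21 reads against 2 in Lsh_KO. In Lsh_KO, chr2:74505401-74507200 by Hoxd8 held 53 against 18 in WT, and chr2:74512601-74513400 at Hoxd3 held 55 against 13. The region chr2:74626201-74627600 at Mtx2, found in both libraries, held 82 WT and 138 Lsh_KO reads.

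**Figure D3:**
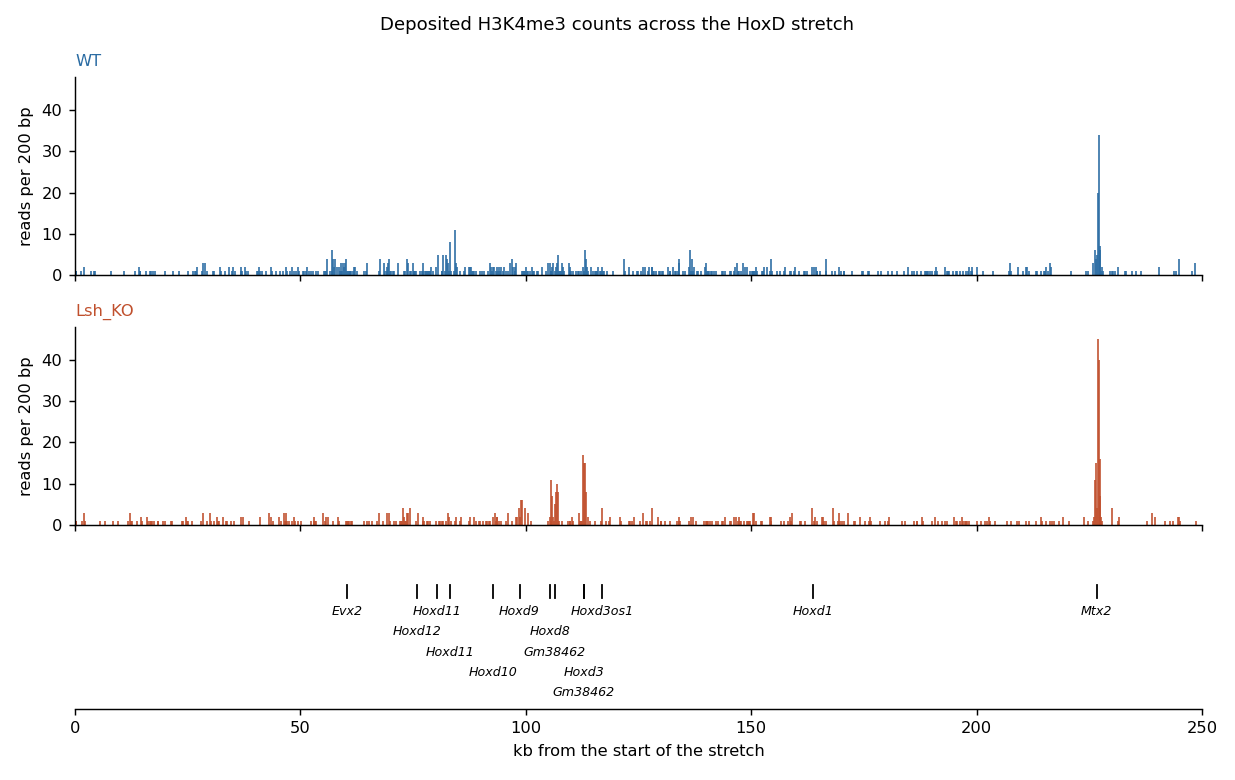
Deposited reads per 200 bp window (y axis, same scale in both panels) against distance in kb from the start of the HoxD stretch, for WT (top) and Lsh_KO (bottom), 1 library each, with placed gene starts as ticks below. Lsh_KO has narrow peaks between Hoxd9 and Hoxd3 that are lower in WT, and both have the Mtx2 peak, with up to 34 reads in WT and 45 in Lsh_KO.

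Hoxd3, an anterior HoxD gene, had 8 WT and 40 Lsh_KO distinct reads within 1 kb of its start, a scaled ratio of 3.52 (1.63 to 8.70). It was called higher, as were 2.14% of 12071 placed promoters of the genome. The Gm38462 start on the opposite strand, at chr2 position 74512897, shares those reads and had 8 and 39. The other Gm38462 start, at 74506440, had 13 and 34, a ratio of 1.84 (0.947 to 3.80), and lies by Hoxd8, which had 12 and 17. Hoxd9 had 5 and 15 reads, a ratio of 2.11 (0.729 to 7.42). In HoxC, Gm36878 was called higher with 10 and 35 reads, a ratio of 2.46 (1.19 to 5.58). Of 9 starts with 20 reads or more in the stretches, 3 were called higher and 0 lower (3.55% of placed promoters of the genome were lower), and 2 of the 3 are the starts that share reads. In the further reads alone the ratio was 1.83 (0.780 to 4.79) for Hoxd3 and 1.98 (0.745 to 6.13) for Gm36878, and neither would be called.

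The posterior HoxD starts were weakly covered in both libraries. Evx2 had 8 WT and 4 Lsh_KO reads, and Hoxd12, a gene of limb and posterior trunk patterning, had 3 and 1. Hoxd11 had 6 and 4 at its first start and 11 and 4 at the second, and Hoxd10 had 10 and 4. All had more reads in WT, and none reached the 20 reads that the rule asks for. In the deposited counts Evx2 had 18 and 5, a ratio of 0.208 (0.0605 to 0.582), and the second Hoxd11 start had 23 and 7, a ratio of 0.228 (0.0827 to 0.549). Hoxd10 had 13 and 12 there, a ratio of 0.692 (0.289 to 1.65), and its further reads alone, 1 in WT and 7 in Lsh_KO, lay the other way. Hoxc4, the anterior end of HoxC, had 15 and 10, a ratio of 0.469 (0.188 to 1.12). Hoxd1, the anterior end of HoxD, had 3 and 6, and Hoxd3os1, an antisense transcript, had 6 and 4. Mtx2, a mitochondrial import gene beside the cluster, carried a peak in both, with 43 and 80 reads and a ratio of 1.31 (0.893 to 1.94).

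**Figure D4:**
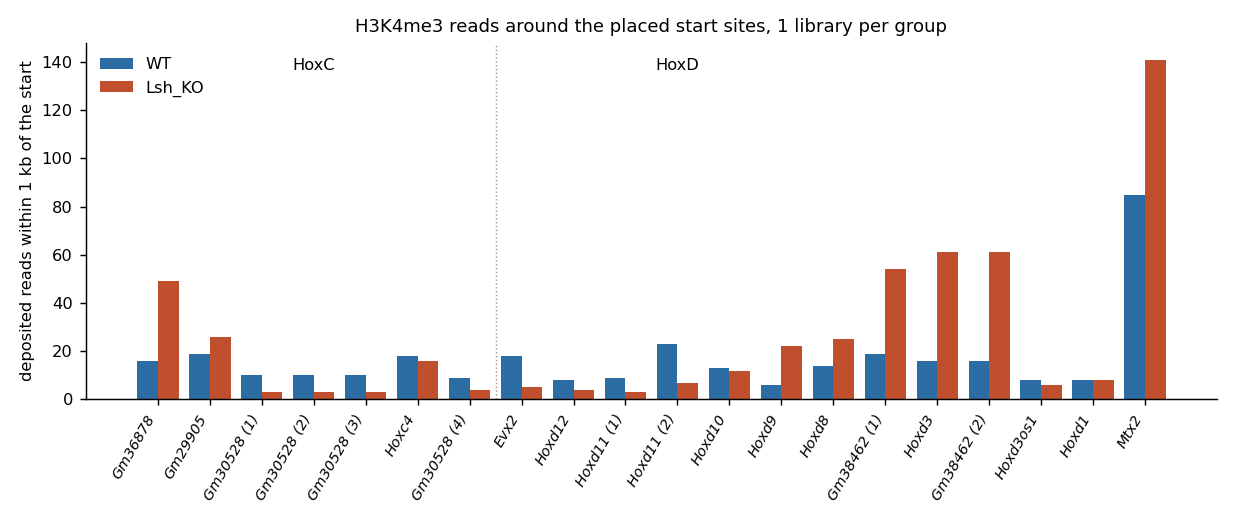
Deposited reads within 1 kb of each placed start (y axis) in WT (blue) and Lsh_KO (red), 1 library each, in genome order, with a number after a symbol that has several starts. Counts are unscaled, and Lsh_KO is the deeper library. Lsh_KO bars stand above WT at Gm36878, Gm29905, Hoxd9, Hoxd8, both Gm38462 starts, Hoxd3 and Mtx2. WT bars stand above Lsh_KO at the Gm30528 starts, Hoxc4, Evx2, Hoxd12, both Hoxd11 starts, Hoxd10 and Hoxd3os1. The bars are equal at Hoxd1.

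Genes of the complexes that maintain Hox states carried the mark in both lines. Of 23 listed Polycomb, Trithorax and Hox partner genes, 15 were placed and all 15 were marked in both libraries, as were 61.2% of 18935 placed promoters of the genome. None of these 15 was called by the 2-fold rule in either direction, where 2.14% of promoters were called higher and 3.55% lower, and the median log2 ratio was 0.01, against 0.04 over all promoters tested. Base composition also moved with the libraries. Reads in HoxC had a mean GC content of 52.8% in WT and 54.4% in Lsh_KO, and outside marked windows of the genome 47.8% and 46.7%. The unscaled ratio of reads with at least 60% GC was 1.10 in HoxC and 1.20 in HoxD, against 0.847 over the genome outside marked windows. Other reads gave 0.750, 0.936 and 1.03. The part of base composition in the spread of the mark was not tested.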

How the data were processed

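H3K4me3 was profiled by ChIP-seq in 1 WT and 1 Lsh_KO fibroblast library, with 20 amplification cycles and gel selection between 200 and 400 bp, per the labels' protocols. The authors deposited aligned 25-base reads on mm8, per the submitters' processing notes, each with an alignment score (deposited score 4 to 53), and whole-number counts of reads in 200 bp windows. The aligner and counting rule are not given in the sources used here. When the reads were placed 100 bp from their leftmost base, 0 deposited windows fell below the counts made from the reads; the further reads of the window lists have an origin that the sources do not give. Of the aligned reads, 2869399 in WT and 3428628 in Lsh_KO, 13.9% and 18.6% repeated a position and strand and were dropped.

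Distinct reads were moved 75 bp in reading direction and counted in 2 kb windows, with exact conditional (Clopper-Pearson) intervals. Intervals cover counting error only, since no molecular identifiers mark which amplified reads come from 1 molecule. Regions joined deposited windows of at least 6 reads that lay at most 1 kb apart, and those with 20 reads were kept. The stretches were set by genomic position and not by their counts. They, the gene lists and the rules were chosen with earlier results of these data known. Every listed gene was to be named: Hoxc5, Hoxc6, Hoxc8, Hoxc9, Hoxc10, Hoxc11, Hoxc12, Hoxc13, Hotair, Mir615 and Haglr have no placed start, nor do Hoxd13, Hoxd4 and Mir196a-2, Lnpk was placed outside the stretch, and the Mir10b hairpin was placed by 1 Lsh_KO read. Gene names and sequences came from RefSeq tables on GRCm38.p6, of which no position was used. Scripts ran in Python 3.11.15 with scipy 1.17.1, numpy 2.4.6, matplotlib 3.10.9 and pandas 2.3.3. Alternatives tried were the scaling, the reads kept, their shift, the window size and the minimum of reads.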

Additional observations from a re-analysis of the deposited data

How the results depend on the processing

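With 1 library per group, a ratio was read as moved when it left the interval of the reported value, and as reversed when a ratio whose interval left out 1 changed side. This reading replaced a stricter one, by whether each interval left out 1, after that one's output had been seen. No paired analysis was possible because each group had 1 library, and leaving out a library leaves no comparison.

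The ratio over a whole stretch depended most on scaling. HoxC moved from 0.607 to 0.764 by total reads and 0.862 by background reads of the genome, and reversed to 1.08 by the background of its 5 Mb. HoxD moved from 0.719 to 0.905 by total reads, and reversed to 1.02 and 1.06 by the genome and local background. Without the 3 fullest 2 kb windows, added after the values were seen, as was the genome background, the ratios were 0.510 and 0.585. The further reads gave 0.615 for HoxD.

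Counts of called windows depended on depth and window size. The 3 lower HoxC windows became 0 by local background, in the further reads, in 1 kb windows and with at least 40 reads, 1 with reads free of mismatches, 7 with every aligned read, 8 in 4 kb windows, 13 in the deposited counts and 14 with at least 10 reads. The 2 higher became 6 by local background, 4 in the deposited counts, 1 with reads not moved and in the further reads, and 0 with a score of at least 40, with reads free of mismatches and in 4 kb windows. The 0 lower HoxD windows became 1 with every aligned read, 4 in 4 kb windows and 6 in the deposited counts and with at least 10 reads. The 1 higher became 2 in the deposited counts and 0 in the further reads. The 3 WT regions of HoxC became 8 with at least 4 reads per window, 0 with at least 10 or with 40 reads per region, and 1 with gaps up to 400 bp. The 5 Lsh_KO regions became 3 with 40 reads per region. The 2 WT regions of HoxD became 1 under each of the stricter minimum, gap and read limits.

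The focal over remaining ratio of HoxC moved from 6.90 to 4.51 with the lists swapped, and that of HoxD from 2.56 to 3.89 without its fullest window and its neighbours. Chosen in WT alone they fell to 1.91 and 1.29, which shows how far the choice of windows sets this ratio. With focal windows from 12 reads, HoxD gave 2.25 (1.43 to 3.56), whose interval takes in the 1.61 of the genome. Among single starts, the side of 1 changed for Gm29905 in 5 of 12 alternatives (0.440 to 1.67), for Hoxd8 in 6 of 12 (0.566 to 2.79) and for Hoxc4 in 1 of 12 (0.323 to 1.40). Gm36878, Hoxd3, Hoxd9, both Gm38462 starts and Mtx2 stayed above 1 in every alternative run, but their calls did not all hold. Hoxd3 went from 3.52 to 1.83 in the further reads and 2.27 within 2 kb. Gm36878 lost its call in the further reads (1.98), within 500 bp (2.25, 0.788 to 7.86) and within 2 kb (1.78, 0.958 to 3.49). For Hoxd9 within 500 bp no ratio was given, since WT had no read there. The causes of these changes were not tested.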
